A study of Mus musculus with 6 samples.

Results

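The voltage-gated sodium, calcium and HCN channel genes were taken from the RNA-seq counts of Fmr1-KO and wild-type (WT) mouse cortical neurons by gene name: the Scn genes for sodium channel α and β subunits, the Cacn genes for calcium channel α1, α2δ, β and γ subunits, and the Hcn genes. Of 55367 rows of the table, 44 carried such a name, and 37 of them are described here, each with a mean of at least 10 counts over the 6 libraries and past the filter for testing. A further 4, Cacna1f, Scn10a, Scn11a and Scn4a, had mean counts between 2.17 and 8 and are not described further. Just inside that limit lay Cacng6, with a mean of 11.8 counts, and just outside it Scn11a, with 8.

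Fmr1 encodes FMRP, the RNA-binding protein missing in fragile X syndrome. Cells came from the cerebral cortex of C57BL/6J pups at postnatal day 1, either WT or Fmr1-KO, and polyadenylated RNA was sequenced after 2 days in vitro, with 3 libraries per genotype. The study's methods state that cells carrying the astrocyte antigen ACSA2 and myelin had been removed with antibody-coated beads before plating, and the study describes its sequenced samples as derived independently. The labels name neither the culture, the litter nor the sex behind a library, so the spread between libraries may be partly technical. They also do not describe the Fmr1 allele.

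Each voltage-gated sodium or calcium channel is built around 1 long pore-forming protein, α for sodium and α1 for calcium, to which smaller subunits attach that set its trafficking to the membrane and its gating. Sodium channels carry the upstroke of the action potential, calcium channels admit the calcium that triggers transmitter release, pacemaker firing and gene expression, and HCN channels carry the inward current that opens when the membrane is hyperpolarized and shapes resting potential and rhythm. In the developing cortex the set of sodium channels shifts as neurons mature, from Scn3a, which is prominent before and around birth, towards Scn2a and later Scn1a and Scn8a.

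The targeted gene was read first. The 3 WT libraries held 4113, 3710 and 3656 counts of Fmr1 and the 3 Fmr1-KO libraries 1761, 1879 and 1972, so that its level in Fmr1-KO was 50.6% of WT (log2 fold change -0.98, SE 0.04, adjusted P = 2.25e-13). Library totals lay between 30348556 and 35126207 counts, and the biological coefficient of variation between libraries was 3.22%, so small differences passed the test: 42.6% of the 16976 genes tested had an adjusted P under 0.05. Xist, the RNA of the inactive X chromosome, was at 298 to 312 CPM (the count scaled to the size of its library) in WT and at 825 to 1017 CPM in Fmr1-KO, and its part in the results was not tested. No channel gene tested here lies on the X chromosome. Marker genes for neurons were detected in every library, and so were those for astrocytes. In WT, 10 neuronal markers summed to 4888 to 5018 CPM and 8 astrocyte markers to 5427 to 5541 CPM. Gfap alone gave 2649 CPM of the astrocyte sum on average. Sums over different genes do not measure the shares of cell types.

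Most channel genes were lower in Fmr1-KO neurons. Of the 37 genes, 26 fell, 2 rose and 9 did not pass the test, while 21.9% of all tested genes fell and 20.7% rose. Among genes averaging 10 CPM or more over the libraries, 51% passed the test, 26.2% falling and 24.7% rising. The median log2 fold change of the 37 was -0.30, beside 0.01 over all tested genes, and 35 of the 37 values were below 0. The 3 WT and 3 Fmr1-KO libraries did not overlap for 28 of the 37 genes, as for 51.7% of all tested genes. Together the 37 genes summed to 1859 CPM ± 38.3 (SD, n = 3) in WT and 1586 ± 17.7 in Fmr1-KO, 85.3% of WT. In cultures of mixed cells, fewer cells of a type and less RNA per cell cannot be told apart.

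The decreases were uneven. A log2 fold change of at least 0.5 in size was reached by 7 of the genes that fell, Cacna1i, Scn2a, Cacng3, Scn2b, Hcn2, Cacna1g and Scn1a, and by 1 of those that rose, Scn4b. Over all tested genes 6.84% fell by that much and 4.56% rose by that much. Every subfamily had at least 2 members that fell, and pore-forming subunits accounted for 5 of the 7 large decreases.

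**Figure D1:**
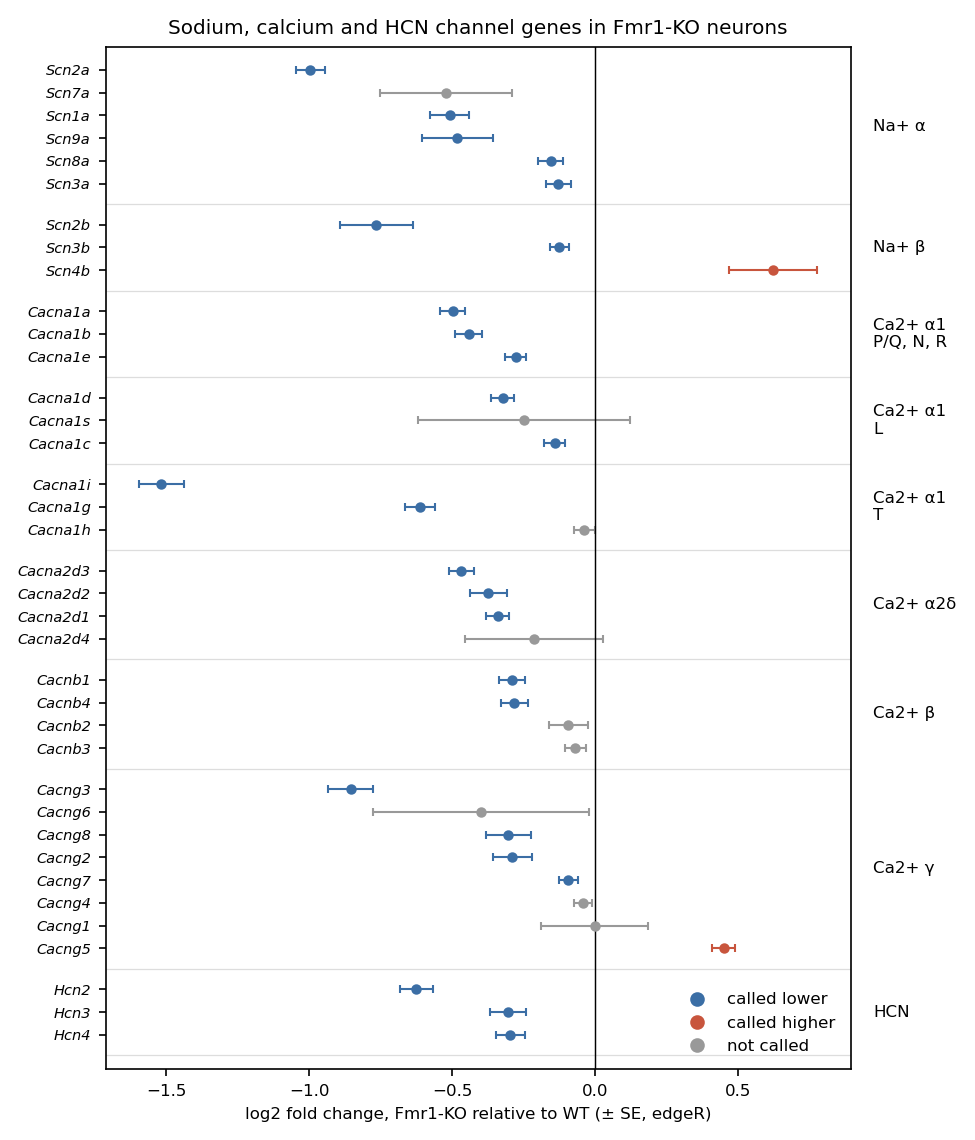
Log2 fold change in Fmr1-KO relative to WT for the 37 channel genes (x axis), grouped by subfamily on the y axis. Points are edgeR estimates and bars their SE, coloured by whether the gene was called lower (26 genes), higher (2) or not called (9); the widest bars belong to genes with few counts such as Cacng6 and Cacna1s.

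To show what the regions around the start sites of these genes look like, RefSeq promoter windows (300 bases, 250 before and 50 after the start, GRCm38.p6) were matched by symbol, and 28 of the 37 genes had 39 windows. No window was found for Cacna1a, Cacna1g, Cacna1h, Cacna2d4, Cacng1, Cacng4, Hcn3, Scn3a or Scn3b. The windows of 4 genes are shown as examples of different responses. They are Cacna1i and Scn2a, with large decreases, Scn8a, a sodium channel that changed little, and Cacng5, the γ subunit that rose. Capitals mark CG dinucleotides, the sites of DNA methylation, and for genes with several starts the most upstream window is given. The windows lie at chr15:80286988-80287287 (+) for Cacna1i, chr2:65620519-65620818 (+) for Scn2a, chr15:100870395-100870694 (+) for Scn8a and chr11:107915006-107915305 (-) for Cacng5.
Cacna1i: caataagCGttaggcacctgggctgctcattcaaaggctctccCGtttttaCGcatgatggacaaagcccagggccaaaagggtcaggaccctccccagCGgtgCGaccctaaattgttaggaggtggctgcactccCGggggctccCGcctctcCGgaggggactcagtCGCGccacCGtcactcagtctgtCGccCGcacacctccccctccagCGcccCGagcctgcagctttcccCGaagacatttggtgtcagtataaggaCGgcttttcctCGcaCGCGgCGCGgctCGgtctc
Scn2a: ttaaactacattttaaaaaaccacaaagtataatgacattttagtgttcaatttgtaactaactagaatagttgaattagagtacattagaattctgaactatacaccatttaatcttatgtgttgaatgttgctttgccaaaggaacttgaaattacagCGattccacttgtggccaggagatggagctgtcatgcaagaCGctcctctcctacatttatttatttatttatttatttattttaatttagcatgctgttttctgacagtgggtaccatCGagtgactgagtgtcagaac
Scn8a: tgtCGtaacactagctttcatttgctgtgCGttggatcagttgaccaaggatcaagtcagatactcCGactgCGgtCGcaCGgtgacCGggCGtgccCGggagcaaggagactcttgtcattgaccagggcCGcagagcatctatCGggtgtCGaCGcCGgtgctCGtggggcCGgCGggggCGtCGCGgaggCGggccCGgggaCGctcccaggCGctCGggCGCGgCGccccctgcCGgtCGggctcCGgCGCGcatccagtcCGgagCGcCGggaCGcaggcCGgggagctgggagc
Cacng5: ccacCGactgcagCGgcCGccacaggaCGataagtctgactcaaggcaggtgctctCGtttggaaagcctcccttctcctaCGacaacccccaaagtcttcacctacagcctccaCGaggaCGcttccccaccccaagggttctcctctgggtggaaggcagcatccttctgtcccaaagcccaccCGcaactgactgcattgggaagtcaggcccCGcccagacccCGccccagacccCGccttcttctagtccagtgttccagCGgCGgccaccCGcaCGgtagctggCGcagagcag
The windows differed widely in composition. That of Scn2a held 3 CG dinucleotides at a GC content of 33.0%, whereas that of Cacna1i held 23 at 62.7%, Scn8a 38 at 70.0% and Cacng5 17 at 63.3%. The median was 12 over the 39 channel windows (range 2 to 63) and 7 over all 32851 windows of the table. Of the genes with large decreases, 6 had a window, 7 windows in all, with a median of 9. Searched on both strands, the letters GGGCGG, the core recognised by Sp1, occurred in 17 of 39 channel windows (43.6%) and in 35.7% of all windows, and among the 4 shown only in Cacng5. TATAAA occurred in 2 of 39 (5.13%) against 13.6%. GGACAGC, a core of the site bound by the neuronal gene repressor REST, occurred in 2 of 39, in windows of Cacnb1 and Cacng6, against 6.56% of all windows, and TTCAGCACC, the other core of that site, in 0 of 39 against 0.371%. These are descriptions of letters within the windows and not of binding.

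Among sodium channel α subunits, Scn2a stood apart. Scn2a encodes NaV1.2, the channel of the axon initial segment of young excitatory neurons. It was at 65.3, 69.2 and 63.0 CPM in the WT libraries and at 31.6, 35.8 and 31.7 CPM in the Fmr1-KO libraries. The genotypes were far from overlapping, and Scn2a fell to 50.1% of WT (log2 fold change -1.0, SE 0.05, adjusted P = 1.46e-12). Scn1a, which encodes NaV1.1 and is best known from fast-spiking interneurons, was lower by less, at 17.7, 18.9 and 16.8 CPM in WT and 12, 13.2 and 12.3 CPM in Fmr1-KO (log2 fold change -0.51, SE 0.07, adjusted P = 3.32e-06). Scn9a, which encodes NaV1.7 of sensory neurons, fell as well, by 0.48 on the log2 scale (SE 0.12, adjusted P = 0.00352) at a far lower level.

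The other abundant α subunits moved little. Scn8a encodes NaV1.6, the main channel of mature nodes and initial segments. It had the highest CPM of the sodium α genes, at 84.1, 87.8 and 82.8 in WT and 73.6, 82.3 and 72.8 in Fmr1-KO, and the second Fmr1-KO library came close to the lowest WT library. The decrease amounted to -0.16 on the log2 scale (SE 0.04, adjusted P = 0.00601). Scn3a, which encodes the fetal channel NaV1.3, was at 63.0, 61.0 and 56.4 CPM in WT and 53.4, 56.7 and 54.8 CPM in Fmr1-KO, so that the genotypes overlapped. Its log2 fold change of -0.13 (SE 0.04) had an adjusted P of 0.0208 and missed the threshold in 4 of the 6 fits that left out 1 library, with adjusted P up to 0.132. Scn7a, which encodes the sodium-sensing channel NaX of glia, came out at a log2 fold change of -0.52 (SE 0.23, adjusted P = 0.0752) on a mean of 36.8 counts.

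The sodium β subunits are single-span membrane proteins that speed gating and link the channel to adhesion molecules. Scn2b, whose product is disulphide-linked to the α subunit, was at 6.53, 8.44 and 5.87 CPM in WT and 4.18, 3.59 and 4.43 CPM in Fmr1-KO (log2 fold change -0.77, SE 0.13, adjusted P = 4.71e-05). The genotypes did not overlap, with a wider spread among the WT libraries.

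Scn4b, whose product provides the blocking particle of resurgent sodium current, moved the other way. It had 61, 50 and 58 counts in WT and 92, 70 and 90 in Fmr1-KO, 1.76, 1.51 and 1.74 CPM against 2.83, 2.29 and 2.59 CPM (log2 fold change 0.62, SE 0.15, adjusted P = 0.00238). Scn3b dominated the group at 109.8, 108 and 111 CPM in WT and 99.1, 102 and 100.5 CPM in Fmr1-KO. Its decrease was small, 0.13 on the log2 scale (SE 0.03, adjusted P = 0.00393), so that the summed level of the 3 β genes described was 90.6% of WT although Scn2b fell far more.

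**Figure D2:**
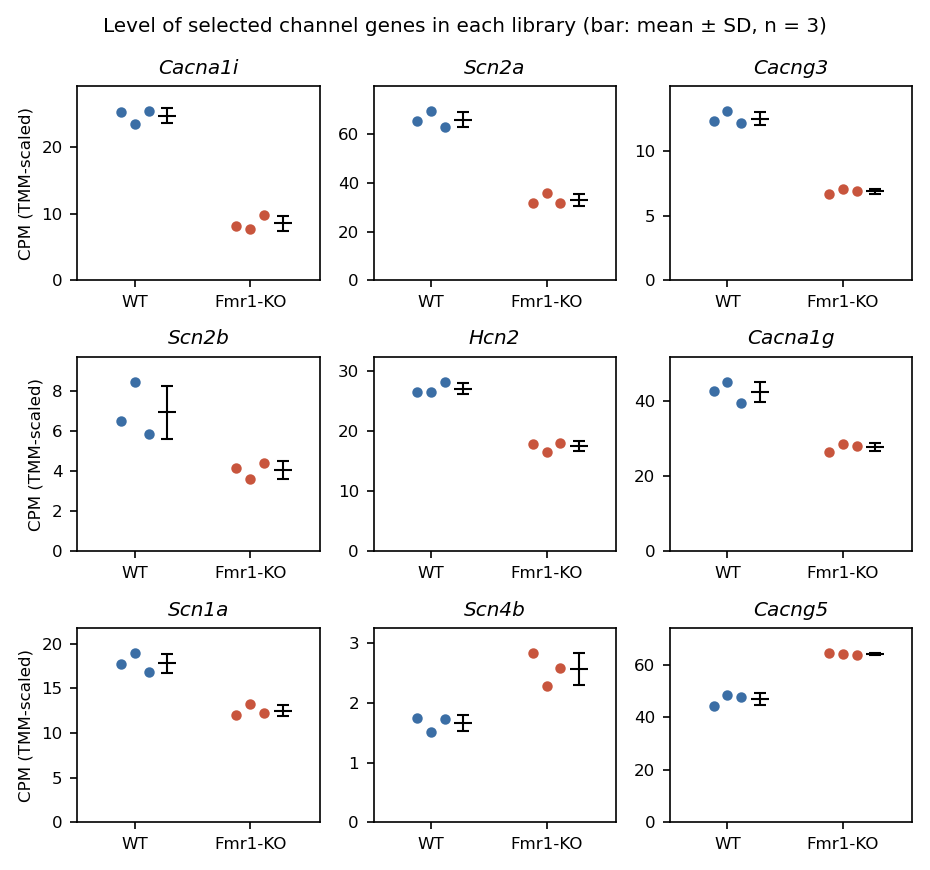
Level of 9 channel genes in each library (y axis, CPM, from 0; one panel per gene) in WT and Fmr1-KO cultures, with the mean and SD of 3 libraries beside the points. The panels hold the 7 genes that fell and the 1 that rose by at least 0.5 on the log2 scale, and Cacng5, which rose by 0.45; the genotypes do not overlap in any of the 9 panels.

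Among calcium channel α1 subunits the T-type genes gave both the largest decrease and the gene that moved least. T-type channels open at negative voltages and underlie rebound and burst firing. Cacna1i, which encodes CaV3.3, was read 877, 773 and 844 times in WT and 266, 236 and 342 in Fmr1-KO. Its level was 25.2, 23.4 and 25.3 CPM against 8.18, 7.71 and 9.83 CPM, 34.9% of WT (log2 fold change -1.52, SE 0.08, adjusted P = 1.83e-12), the largest change of the 37 channel genes. The gene lies at chr15:80287238-80398279 on the plus strand and no other annotated exon on that strand overlaps its own.

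Cacna1g, which encodes CaV3.1 of thalamic relay and other bursting neurons, fell from 42.8, 45.0 and 39.5 CPM to 26.6, 28.6 and 28.1 CPM, 65.4% of WT (log2 fold change -0.61, SE 0.05, adjusted P = 5.38e-09). Cacna1h, which encodes CaV3.2, was at 67.6, 68.5 and 68.1 CPM in WT and 68.2, 66.1 and 64.6 CPM in Fmr1-KO. Its log2 fold change of -0.04 had a 95% interval of -0.11 to 0.03, so that a decrease of the size of that of Cacna1g lay well outside it. Added up, T-type genes reached 135 CPM ± 2.05 (SD, n = 3) in WT and 102.7 ± 0.262 in Fmr1-KO.

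The α1 subunits of presynaptic calcium channels fell together, all 3 of 3. Cacna1a, which encodes the P/Q-type channel that drives fast transmitter release, was at 57.4, 60.7 and 57.0 CPM in WT and 39.1, 41.9 and 43.0 CPM in Fmr1-KO (log2 fold change -0.50, just under 0.5 in size before rounding, SE 0.04, adjusted P = 9.04e-09). Cacna1b, the N-type channel of the same terminals, was at 78.7, 84.1 and 71.7 CPM against 57.2, 58.9 and 56.5 CPM (log2 fold change -0.44, SE 0.05, adjusted P = 1.29e-07). Cacna1e, the R-type channel and the highest of the group in CPM, was at 90.5, 93.1 and 86.2 CPM against 73.1, 74.8 and 74.6 CPM (log2 fold change -0.28, SE 0.04, adjusted P = 2.72e-06). The genotypes did not overlap for any of the 3, and their sum in Fmr1-KO was 76.4% of WT.

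Of the L-type subunits, which couple depolarization to transcription, 2 of 3 fell. Cacna1d, which encodes CaV1.3 and opens at lower voltages, was at 54.6, 54.9 and 55.7 CPM in WT and 43.1, 44.3 and 44.7 CPM in Fmr1-KO (log2 fold change -0.32, SE 0.04, adjusted P = 8.39e-07). Cacna1c, which encodes CaV1.2 and had the highest CPM of all α1 genes, was at 139.5, 145 and 136 CPM against 126, 123 and 132 CPM (log2 fold change -0.14, SE 0.04, adjusted P = 0.0026). Cacna1s, the channel of skeletal muscle, was barely detected at a mean of 17.8 counts and its log2 fold change of -0.25 had an SE of 0.37 (adjusted P = 0.632).

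The auxiliary subunits of calcium channels were read by class, and differences between classes were not tested. The α2δ genes encode extracellular subunits that raise channel density at the membrane, among them the targets of gabapentin, and 3 of 4 fell. Cacna2d1, the highest of them in CPM, was at 98.8, 103 and 93.8 CPM in WT and 75.2, 77.9 and 79.8 CPM in Fmr1-KO (log2 fold change -0.34, SE 0.04, adjusted P = 3.2e-07). Cacna2d3 fell by 0.47 on the log2 scale (adjusted P = 1.59e-08) and Cacna2d2 by 0.37 (adjusted P = 6.12e-05). Cacna2d4, a gene of the retina, was measured on a mean of 33.0 counts with a log2 fold change of -0.21 (adjusted P = 0.511). The summed α2δ level in Fmr1-KO was 76.7% of WT.

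The cytoplasmic β subunits bind the α1 subunit and bring it to the membrane, and 2 of 4 fell. These were Cacnb1 (log2 fold change -0.29, adjusted P = 2.61e-05) and Cacnb4 (log2 fold change -0.28, adjusted P = 5.31e-05). Cacnb3, the most abundant, was at 112, 123 and 115 CPM in WT and 113, 109 and 112 CPM in Fmr1-KO, with overlapping genotypes, a log2 fold change of -0.07 and a 95% interval of -0.14 to 0.00. For Cacnb2 the log2 fold change was -0.09 (adjusted P = 0.29), although its WT and Fmr1-KO libraries did not overlap.

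The γ genes encode mainly proteins that accompany AMPA-type glutamate receptors (TARPs) rather than calcium channels, Cacng2 being stargazin. Cacng3, a TARP of the forebrain, fell from 12.3, 13.0 and 12.1 CPM to 6.67, 7.06 and 6.93 CPM, 55.2% of WT (log2 fold change -0.86, SE 0.08, adjusted P = 1.18e-08). Cacng2 was at 31.9, 32.9 and 32.2 CPM in WT and 22.4, 29.0 and 28 CPM in Fmr1-KO, where the first library lay well under the other 2 (log2 fold change -0.29, SE 0.07, adjusted P = 0.00168). Cacng8, a TARP of the hippocampus, fell by a similar size (log2 fold change -0.30, adjusted P = 0.00356).

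The TARP gene Cacng4, which is prominent in the developing brain, had the highest CPM of the γ genes and did not pass the test. Per kb of exon its WT libraries overlapped those of Cacng7. It was at 213, 213 and 207 CPM in WT and 204, 199 and 211 CPM in Fmr1-KO (log2 fold change -0.04, 95% interval -0.10 to 0.02). Cacng7 was at 139, 141 and 142 CPM against 135, 129 and 131 CPM, and its log2 fold change of -0.09 (adjusted P = 0.0219) missed the threshold in 3 of the 6 fits that left out 1 library, with adjusted P up to 0.0701. Cacng1, a gene of skeletal muscle, had a log2 fold change of -0.00 (SE 0.19) and Cacng6 one of -0.40 (SE 0.38), both on few counts.

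Cacng5 was the only γ gene that rose. It encodes a TARP of the second type, was at 44.4, 48.7 and 47.7 CPM in WT and 64.4, 64.1 and 63.6 CPM in Fmr1-KO, 136.5% of WT (log2 fold change 0.45, SE 0.04, adjusted P = 1.39e-08). Cacng1, Cacng4 and Cacng5 lie beside each other on chromosome 11 within 212 kb, with 80.0 kb between Cacng4 and Cacng5. In counts, Cacng5 stood to Cacng4 as 0.209, 0.229 and 0.230 in the WT libraries and as 0.316, 0.322 and 0.301 in the Fmr1-KO libraries. This ratio was formed after the values were seen and was not tested. Added up, the γ genes reached 458 CPM ± 5.39 (SD, n = 3) in WT and 446 ± 7.15 in Fmr1-KO. At 97.4% of WT this was the smallest shift in summed level of any subfamily. The sum came mostly from Cacng4 and Cacng7, while the median log2 fold change of the γ genes was -0.19.

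All 3 HCN genes described fell. Hcn2, which encodes a slow channel that is strongly gated by cyclic AMP, fell from 26.6, 26.4 and 28.1 CPM to 17.9, 16.5 and 18 CPM, 64.8% of WT (log2 fold change -0.63, SE 0.06, adjusted P = 1.42e-08). Hcn4, the pacemaker channel of the sinoatrial node, was at 39.4, 41.0 and 42.4 CPM in WT and 33.2, 31.0 and 35.7 CPM in Fmr1-KO (log2 fold change -0.30, SE 0.05, adjusted P = 8.1e-05). Hcn3 was at 21.4, 23.5 and 20.3 CPM against 17.6, 17.8 and 17.4 CPM (log2 fold change -0.30, SE 0.06, adjusted P = 0.000443). The decreases of Hcn3 and Hcn4 were of the same size, and the genotypes did not overlap for any of the 3. Added up, these HCN genes reached 89.7 CPM ± 2.01 (SD, n = 3) in WT and 68.4 ± 2.94 in Fmr1-KO, 76.2% of WT.

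Levels of different genes can be set side by side only per length, here as CPM per kb of annotated exon. Among sodium α genes 3 shared the top in WT, where Scn8a was at 5.25 to 5.57, Scn2a at 4.94 to 5.43 and Scn3a at 4.53 to 5.05 CPM per kb. Each of these ranges overlapped the next, so the order of neighbours was within the spread. In Fmr1-KO, Scn8a was at 4.62 to 5.22 and Scn3a at 4.28 to 4.55, whereas Scn2a was at 2.48 to 2.81 CPM per kb and no longer overlapped them. The share of Scn2a in the summed per-length level of the 6 sodium α genes described was 29.6% ± 0.40 (SD, n = 3) in WT and 19.5% ± 0.39 in Fmr1-KO, while that of Scn8a was 30.9% ± 0.50 and 36.3% ± 0.74 and that of Scn3a 27.7% ± 1.0 and 33.2% ± 0.80. Shares add up to a whole, so a lower share of Scn2a raises the others without any change in their level.

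Among calcium α1 genes Cacna1b was highest per length in WT at 7.21 to 8.46 CPM per kb, above Cacna1h at 6.92 to 7.02 and Cacna1c at 6.42 to 6.85. In Fmr1-KO, Cacna1h was highest at 6.62 to 6.98 CPM per kb, and Cacna1b at 5.69 to 5.92 overlapped Cacna1c at 5.82 to 6.24. The share of Cacna1i fell short of that in WT in every Fmr1-KO library, at 6.06% on average in WT and 2.69% in Fmr1-KO. Among HCN genes Hcn2 led in WT at 8.26 to 8.79 CPM per kb, above Hcn4 at 6.44 to 6.93. In Fmr1-KO their ranges met, at 5.17 to 5.65 for Hcn2 and 5.06 to 5.83 for Hcn4.

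**Figure D3:**
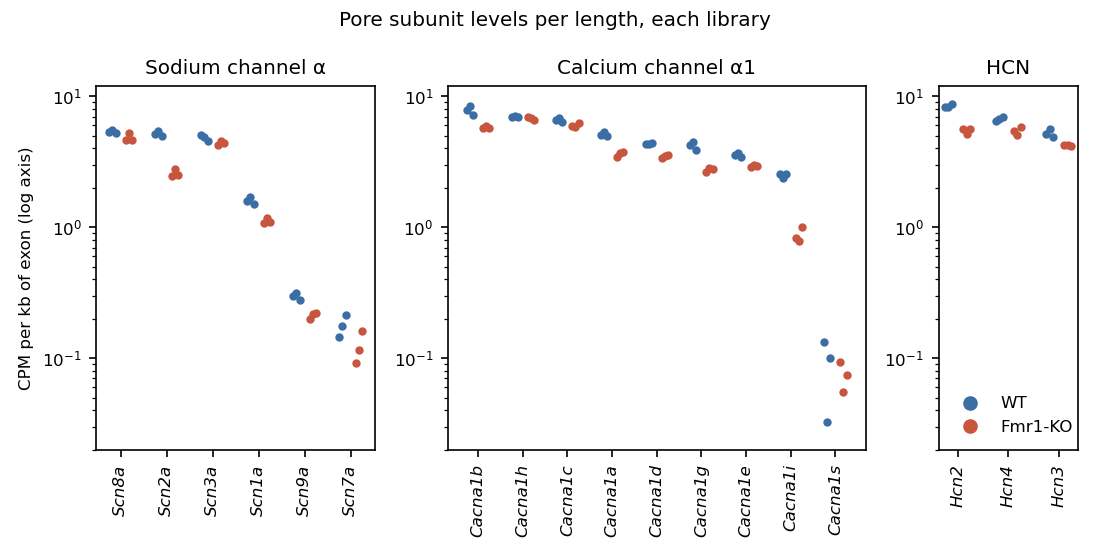
Level per length (y axis, CPM per kb of annotated exon, log axis) of the pore-forming genes of sodium, calcium and HCN channels in each WT and Fmr1-KO library, each point being 1 library. Scn8a, Scn2a and Scn3a start at like levels in WT, and of these Scn2a shows the widest gap between genotypes; Cacna1i shows the widest gap among the calcium channel genes.

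The balance between genes was followed in 5 log2 ratios of counts, of which 4 are given, each compared between genotypes with a 2-sided exact permutation test, which for 3 against 3 libraries cannot give a p under 0.1. The ratio of the more mature Scn2a to the fetal Scn3a was 0.13 ± 0.07 (SD, n = 3) in WT and -0.74 ± 0.06 in Fmr1-KO, a difference of -0.87 (exact permutation p = 0.1, 0.167 adjusted over the 5 ratios). The ratio of Scn8a to Scn3a, also a late to an early channel, differed by -0.03 (exact permutation p = 0.7, adjusted 0.7). The ratio of Cacnb4 to Cacnb3 differed by -0.21 (exact permutation p = 0.2, adjusted 0.25) and that of Cacng2 to Cacng4 by -0.26 (exact permutation p = 0.1, adjusted 0.167). None passed after adjustment, and at this number of libraries none could.

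Several of these genes lie in tandem. Scn3a, Scn2a, Scn1a, Scn9a and Scn7a share 1328 kb of chromosome 2, and along that stretch the log2 fold changes were -0.13, -1.0, -0.51, -0.48 and -0.52 in order of position. Scn2b and Scn4b lie next to each other on chromosome 9 with 8.32 kb between them, and Scn2b fell while Scn4b rose. Of the 37 genes only Cacng8 shares annotated exon sequence with another gene on the same strand, over 3.88% of its length.

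The proteins that bind, anchor or assist these channels were read from lists for each family. A list of related cation channels and their subunits was added, and all these are called partner genes here. Of 40 such partner genes tested, 21 fell (52.5%) and 7 rose (17.5%), while 21.9% of all tested genes fell and 20.7% rose. The median log2 fold change of the partners was -0.19, between -0.30 for the channel genes and 0.01 over all tested genes. Of 12 sodium channel partners 6 fell and 2 rose, of 16 calcium channel partners 9 fell and 2 rose, and of 4 HCN partners 2 fell and 2 rose. Among 8 related cation channels and their subunits, the NALCN and CatSper group, 4 fell and 1 rose. Catsper1, of the sperm channel, was at 0 in all libraries.

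At least 0.5 on the log2 scale was reached by 6 of the partner genes that fell and by 1 that rose. Rimbp2, which tethers presynaptic calcium channels to release sites, fell from 22.6 to 10.4 CPM (log2 fold change -1.12, adjusted P = 4.81e-11), and Rims1, a scaffold of the same zone, fell by 0.59 on the log2 scale (adjusted P = 3.53e-08). Fgf12, which binds the tail of sodium channels and shifts their inactivation, fell from 46.2 to 27.0 CPM (log2 fold change -0.78, adjusted P = 4.01e-11). Sptbn4, the spectrin of the initial segment, fell by 0.60 on the log2 scale (adjusted P = 4.54e-09), and Nfasc, the adhesion protein neurofascin found there, by 0.55 (adjusted P = 1.58e-11). Pex5l, which encodes the HCN trafficking protein TRIP8b, fell by 0.54 on that scale (adjusted P = 7.55e-06). Kcne2, an accessory subunit proposed for HCN channels and abundant in choroid plexus, rose from 4.74 to 7.96 CPM (log2 fold change 0.75, adjusted P = 1.89e-06).

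Markers of cell types also differed between genotypes, in both directions. Of 10 general neuronal markers 9 fell and 1 rose, with a median log2 fold change of -0.64, beside -0.30 for the channel genes. The summed level of these markers was 4888 to 5018 CPM in WT and 4225 to 4422 CPM in Fmr1-KO, 86.9% of WT. That sum came mostly from Dcx, Map2 and Tubb3, with log2 fold changes of 0.08, -0.11 and -0.28. The 8 excitatory neuron markers summed to 600.2 to 611 CPM in WT and 591 to 622 CPM in Fmr1-KO, with 3 falling and 5 rising. The 9 interneuron markers summed to 755 to 787 and 788 to 866 CPM, with 5 falling and 4 rising. These sums hid large decreases of single genes. Slc17a7 of the excitatory list fell from 20.2 to 3.69 CPM. In the interneuron list Sst fell from 43.6 to 7.53 CPM and Npy from 27.4 to 5.05 CPM. Dlx1 of that list rose from 257 to 354 CPM and Dlx2 from 84.4 to 127 CPM. Of 9 progenitor markers 5 rose and none fell, and the list summed to 1796 to 1823 CPM in WT and 2107 to 2203 CPM in Fmr1-KO, mostly from Vim. Within it Eomes, a gene of intermediate progenitors, rose from 10.5 to 72.8 CPM and the proneural gene Neurog2 from 1.66 to 8.49 CPM. All 9 markers of proliferating cells rose, from 498 to 538 CPM to 861 to 918 CPM.

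Non-neuronal markers moved too. All 8 oligodendrocyte lineage markers fell, from 1884 to 2046 CPM to 1075 to 1159 CPM, and 7 of 8 microglial markers fell, from 165 to 183 CPM to 96.5 to 108 CPM. Of 8 astrocyte markers 5 fell and 1 rose, to 89.8% of WT, and of 7 endothelial and mural markers tested 2 fell and 4 rose. The summed level of all 8 endothelial and mural markers was 163% of WT, mostly from the mural gene Acta2. Of the other mural genes, Pdgfrb rose from 46.9 to 65.1 CPM, while Rgs5 fell from 22.1 to 11.8 CPM. The endothelial gene Kdr rose from 7.27 to 17.1 CPM and Flt1 from 1.75 to 2.32 CPM, while Cdh5 fell from 2.54 to 1.61 CPM. Of 5 muscle genes tested 3 rose. All 8 muscle genes of the list summed to 8.65 to 10.3 CPM in WT and 13.7 to 15.6 CPM in Fmr1-KO, mostly from Ryr1 at 5.65 and 9.66 CPM on average. No marker gene was at 0 over all libraries. Scn2a, Cacna1i and many other channel genes are themselves genes of maturing neurons, and Scn7a is best known from glia. The part of these shifts in the channel results was not tested.

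**Figure D4:**
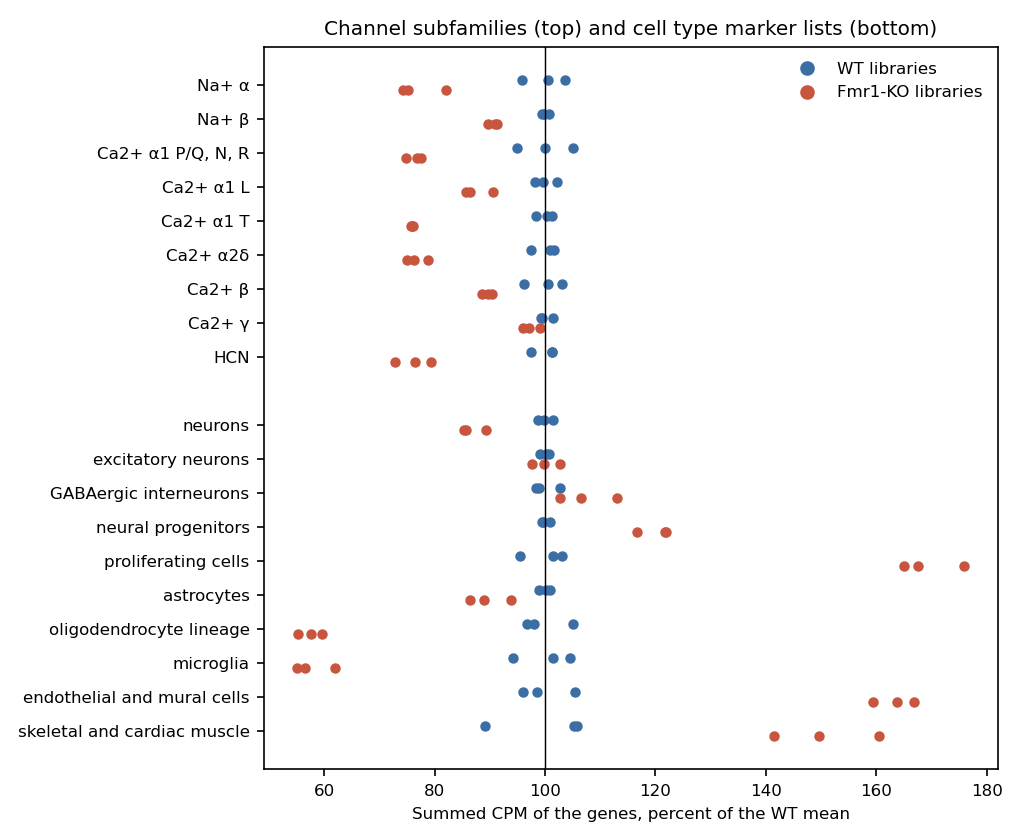
Summed level of each channel subfamily (top 9 lines) and each cell type marker list (bottom 10 lines) in every library, as a percentage of the mean of the 3 WT libraries (x axis), with each point being 1 library. T-type, HCN and P/Q-, N- and R-type genes lie lowest among the subfamilies, at 76.0%, 76.2% and 76.4% of WT, and the γ genes closest to WT at 97.4%, while proliferation markers lie at 169% and oligodendrocyte lineage markers at 57.5%.

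The study asked whether targets of nonsense-mediated mRNA decay are lower without FMRP, using a target list made in N2A neuroblastoma cells. From RNA-seq of these cultures it reported a general and significant decrease of the listed targets in Fmr1-KO. It also found, in the same kind of culture, more of the phosphorylated decay factor UPF1 and lower levels of selected targets relative to their pre-mRNA. The counts used here measure mRNA level alone and do not separate decay from synthesis. Of the 37 channel genes 5 are on that list, Cacna1c, Hcn2, Scn2a, Scn3a and Scn3b, and all 5 fell, with a median log2 fold change of -0.14. Of the other 32 genes 21 fell and 2 rose, with a median of -0.30. Over all tested genes 21.9% fell and 20.7% rose, and the share of the whole list that fell was not computed. The difference between the 2 medians was not tested. Among the 5 on the list, Scn2a and Hcn2 fell by at least 0.5 on the log2 scale. The list holds targets found in N2A cells, so the other channel genes are not shown by it to be free of such decay.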

How the data were processed

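The authors trimmed reads with FastP, aligned them to GRCm38.p6 with STAR and assigned them to gene names with featureCounts of the Subread package in reverse-stranded mode, per the study's methods. The submitters' processing notes give STAR 2.7.6a and Subread 2.0.1, and the Subread version in the study's methods differs from that. The deposited table holds raw counts per gene, not normalized, for 3 WT and 3 Fmr1-KO libraries, and every row has a gene name. Library totals differed by a factor of at most 1.16.

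Channel genes were chosen by symbol, with a mean of at least 10 counts. Of the genes so chosen, 3 are not reported here, and no count, median or sum over the channel genes includes them. The members and all gene lists were chosen with earlier results of these data known. Genes kept by edgeR's filterByExpr (16976) were fitted together with TMM scaling and the quasi-likelihood test of edgeR 4.0.16 (R 4.3.3), Fmr1-KO relative to WT without covariates. P values were adjusted by the Benjamini-Hochberg method over all tested genes, and an adjusted P under 0.05 counted as called. Levels are CPM, fold changes are log2 with their SE, and 95% intervals are normal intervals from the SE. Values per library are given for channel genes called with a log2 fold change of at least 0.5 in size and for the highest gene of each subfamily. Further genes were given them after their values were seen. Partner genes are named when called at that size. Ratios used a pseudocount of 0.5 and exact permutation tests. Lengths are unions of all GENCODE M21 exons, an older release than those the study names, which understates per-length levels of genes with many rarely used exons.

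The fit was tested on counts simulated for Fmr1-KO relative to WT over 16807 genes. It recovered, with the correct direction, 92.4% of 197 genes changed by 1 on the log2 scale. Of the genes left unchanged it called 0.0662%. The simulation gave all genes the same dispersion and changed few of them, so these rates need not hold for the smaller changes described here. Libraries of the same genotype differed by more than sampling noise, and each counted as 1. That does not show that they came from separate cultures. Same-numbered WT and Fmr1-KO libraries did not deviate together (correlations -0.0668, 0.0593 and 0.0116), and numbers were not used as pairs. Alternatives were DESeq2 1.42.0, other scalings and filters, a minimum fold change, a replicate block and leaving out each library.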

Additional observations from a re-analysis of the deposited data

How the results depend on the processing

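The count of channel genes that fell was 26 as reported, 26 with DESeq2, with RLE or upper-quartile scaling and without a filter, 24 with library totals alone, and 25 to 26 when 1 library was left out; the count that rose was 2 in each of these. With the replicate block it was 27 lower and 2 higher, Scn7a being gained (adjusted P = 0.0450), and over all genes 3694 and 3488. A filter at a mean of 5 CPM left 30 channel genes, of which 1 rose. Tested against a minimum fold change of 1.2, 10 channel genes fell, 11 partners fell and 3 rose, and 1340 of all genes fell and 883 rose. Cacng7 and Scn3a lost their call with library totals (adjusted P = 0.104 and 0.0639). Library totals also moved the log2 change of the summed level of T-type genes to -0.37, of γ genes to -0.0104 and of sodium β genes to -0.11, the median of the channel genes to -0.27 and the median of all genes to 0.0338. Cacng1 changed sign with upper-quartile scaling (0.00866) and library totals (0.0260), and ran from -0.0883 to 0.179 when 1 library was left out. Cacna1s ran from -0.64 to 0.165 and the ratio of Scn8a to Scn3a from -0.0695 to 0.00121 in the same way. None of these 3 had passed a test, and the cause was not tested. The median of the channel genes ran from -0.33 to -0.28 in these fits. Leaving out 1 library gave 3300.0 to 3569 lower and 2969 to 3307 higher genes over all. Of 511 values of single channel genes under alternatives, 477 kept direction and call, 25 lost the call, 3 gained it and 6 changed sign. Depth limits Cacng6, Cacna1s and the other genes under 100 counts.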
